A study of Mus musculus with 18 samples.

Results

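The response of embryonic stem (ES) cells to the liver X receptor (LXR) agonist GW3965 was taken from RNA sequencing of wild type E14 mouse ES cells. Members were chosen by their labels, 4 of the 18 libraries in the series. They were the 2 libraries of ES cells given GW3965 for 24 h and the 2 libraries titled as control ES cells. These controls also stand as the undifferentiated starting point of the series. All 23420 genes in the count files were read, and 17166 of them passed the filter on low counts and were tested. The series followed E14 cells from the undifferentiated state into neural cultures and added ligands at several points, in 9 groups of 2 libraries each. GW3965 was used at 1 µM, and the treatment protocol names dimethylsulfoxide as the vehicle. The titles do not tell whether the ES controls were given vehicle, and no treatment time is listed for them. The ES cells grew without feeder cells on gelatin, in serum with leukemia inhibitory factor, which holds them undifferentiated.

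Further groups entered only where GW3965 in ES cells was set against them. These were ES cells given the retinoid X receptor (RXR) agonist LG268 for 24 h, ES cells given LG268 and GW3965 together for 24 h, and day 17 cultures with GW3965 or without it, differentiated from the same wild type line through embryoid bodies and retinoic acid. The labels give no treatment time for the day 17 cultures, whose file names read as 24 h. Nothing in the labels tells whether replicates came from separate cultures, so p-values measure only the spread between these libraries, which may be technical.

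LXRα (encoded by Nr1h3) and LXRβ (Nr1h2) are nuclear receptors that bind oxysterols and work as heterodimers with RXR. On DNA the heterodimer recognises DR4 elements, direct repeats of AGGTCA spaced by 4 bases, and ligand turns bound target genes on. Known targets export cholesterol, limit lipoprotein uptake and, through Srebf1 and directly, drive fatty acid synthesis. Cholesterol synthesis is instead governed mainly by the related factor encoded by Srebf2, which is held back when membrane cholesterol is high.

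Gene counts came to 44.8 and 20.9 M in the GW3965 libraries and 24.4 and 27.2 M in the ES control libraries (M, 1000000 counts), and between 64.66 and 65.03% of the reads listed in these 4 files had no gene. The 6 ES cell markers were all above 5 counts per 1000000 (CPM), with a summed level of 2380 and 2340 CPM under GW3965 and 2130 and 2130 CPM in control. Summed markers of primitive endoderm lay at 10.7 and 10.3 CPM against 11.2 and 11.8 CPM in control, those of trophoblast at 3.5 and 3.84 CPM against 5.05 and 4.43 CPM with Tpbpa at 0, and those of fibroblasts at 113 and 106 CPM against 99.4 and 104 CPM. Neuron markers summed to 380 and 369 CPM against 325 and 331 CPM in control, nearly all of it Stmn2. Of macrophage and blood markers Ptprc, Csf1r and Tyrobp summed to under 0.2 CPM in each library, with Tyrobp at 0. Longer lists of the same cell types did not all run the same way: 12 trophoblast genes summed to 518.2 and 522.2 CPM under GW3965 against 428.9 and 451.7 CPM in control, 14 fibroblast and mesenchyme genes to 596.7 and 553.1 CPM against 583.8 and 590.2 CPM, and 10 macrophage and blood genes to 33.8 and 35.9 CPM against 34.4 and 36.2 CPM. The fit of the 4 libraries described below called 2 of the trophoblast genes higher and 1 lower. In the fit of all libraries none of the tested markers or tested genes on these 3 lists passed the edgeR test, and their part in the results below was not tested.

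GW3965 moved few genes, nearly all upward. Of 17166 tested genes 55 were called at an adjusted p below 0.05 (0.32%), 53 of them higher with GW3965 (0.309%) and 2 lower (0.0117%), by the quasi-likelihood test of edgeR in a fit of all 18 libraries with Benjamini-Hochberg adjustment. At an unadjusted p below 0.05 there were 970. The rises reached 2-fold or more in 16 genes and the median rise was 1.67-fold. In each of the 55 genes the GW3965 libraries did not overlap the control libraries, while over all tested genes both GW3965 libraries lay above both controls in 20% and below both in 18.7%. The 53 genes together took 1.78 and 1.72% of all gene counts under GW3965, against 0.674 and 0.675% in control. Their mean control levels ran from 0.435 to 1210 CPM with a median of 59.3 CPM. In bulk RNA, fewer cells of a type and less RNA per cell cannot be told apart. Of the 55 genes 26 share 1% or more of their 50-base stretches with another annotated gene and 20 share an exon with one, on the opposite strand in 15, among them Srebf1, Acss2, Mid1ip1, Lpcat3, Pltp, Tlcd1, Tnfaip2, Enpp2 and Ccnd2. The strand setting of the counting is not given in the sources used here, so reads of such partners cannot be told apart.

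The count depends on which libraries share the estimate of the spread. A fit of the 4 libraries alone called 369 genes (2.46% of 15015 tested), 307 higher (2.04%) and 62 lower (0.413%), and it held all 55. A fit of the 8 ES libraries called 72 (0.472%), 69 higher (0.452%) and 3 lower (0.0197%), with 47 of the 55. Leaving out 1 library left 31 calls without GW3965 replicate 1, 44 without GW3965 replicate 2, 28 without control replicate 1 and 33 without control replicate 2. Genes called in every one of these 4 fits numbered 26, among them Abca1, Abcg1, Srebf1, Mylip, Fasn, Scd1, Scd2, Acaca and Lpcat3.

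**Figure D1:**
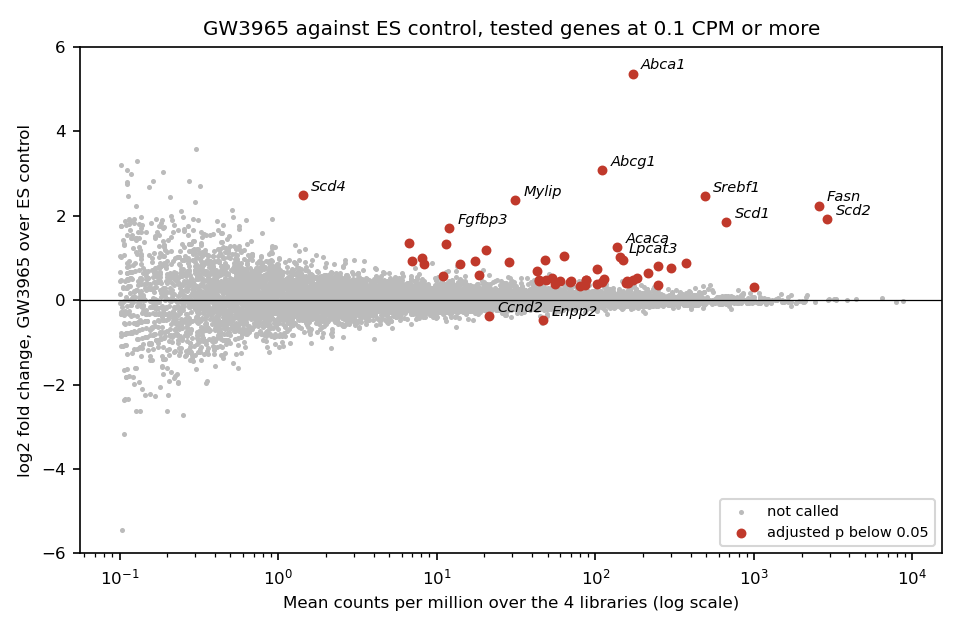
The log2 fold change of GW3965 over ES control (vertical axis) against the mean CPM over the 4 libraries (horizontal axis, log scale) for tested genes at a mean of 0.1 CPM or more, with genes at an adjusted p below 0.05 in red. Of the 55 called genes 53 lie above 0, with Abca1 at 5.37, and the 2 below 0 are Enpp2 and Ccnd2.

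Among the called genes the largest change was in cholesterol export. Abca1, which encodes the transporter that loads cholesterol onto apolipoprotein A-I, stood at 344.9 and 327.3 CPM in GW3965 cells and at 8.79 and 7.51 CPM in control cells. Both GW3965 libraries were far above both controls, a 41.4-fold rise (log2 5.37 ± 0.10 SE, adjusted p = 3.08e-18). Abcg1, whose product moves sterols towards HDL particles, had 198 and 198.3 CPM with GW3965 against 23.2 and 23.8 CPM in control. The groups were again well apart, 8.43-fold (log2 3.08 ± 0.10, adjusted p = 2.13e-14). These were the 2 called genes of 13 tested for sterol efflux and oxysterol transport, and the list's median log2 fold change was 0.06, beside 0 for all genes. Abca2, Abca3 and Abca7, transporters of the same family, had log2 differences of 0.02 ± 0.06, 0.02 ± 0.07 and 0.17 ± 0.12 and did not pass. Npc1, which releases cholesterol from lysosomes, had 130.3 and 120.1 CPM with GW3965 and 120.1 and 129.5 CPM in control (log2 0.01 ± 0.06), with overlapping groups. Arl4c, an LXR target in macrophages, had 228.3 and 196.6 CPM against 195.6 and 197.1 CPM in control, overlapping as well (adjusted p = 0.982).

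Among the regulators of lipid genes, Srebf1 rose and its close relative Srebf2 did not pass the test. Srebf1, which encodes the SREBP-1 factors of fatty acid synthesis, had 853.2 and 811.9 CPM under GW3965 and 146.7 and 155.3 CPM in control. It was 5.51-fold higher with no overlap (log2 2.46 ± 0.12, adjusted p = 2.5e-11). Srebf2 had 524.8 and 513.2 CPM against 483.1 and 503.2 CPM in control (log2 0.07 ± 0.09, adjusted p = 1.0). Insig1, whose protein keeps SREBP precursors in the endoplasmic reticulum, had 220.3 and 211.3 CPM against 151.7 and 148.8 CPM in control and rose 1.44-fold (log2 0.52 ± 0.07, adjusted p = 0.000657), whereas Insig2 had 43.1 and 42.9 CPM against 44.8 and 41.3 CPM in control, with overlapping groups. Srebf1 and Insig1 were the called members of 16 regulators (median log2 0.06). Mlxipl, which encodes the carbohydrate-responsive factor ChREBP and is an LXR target in liver, had 22.5 and 19.4 CPM with GW3965 and 20.1 and 21.4 CPM in control, with overlapping groups.

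Transcripts of the receptors themselves did not pass the test. Nr1h2 had 81.8 and 73.8 CPM under GW3965 and 72.1 and 70.7 CPM in control (log2 0.13 ± 0.14, adjusted p = 1.0). Nr1h3 was low, at 1.47 and 1.33 CPM against 1.58 and 1.62 CPM in control (log2 -0.18 ± 0.34, adjusted p = 1.0). Rxra and Rxrb, which encode partner receptors, had log2 differences of -0.10 ± 0.09 and -0.02 ± 0.06. Of 23 tested genes of nuclear receptors and their partners 0 passed the edgeR test in the fit of 18 libraries. The fit of the 4 libraries called 1 of them higher.

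**Figure D2:**
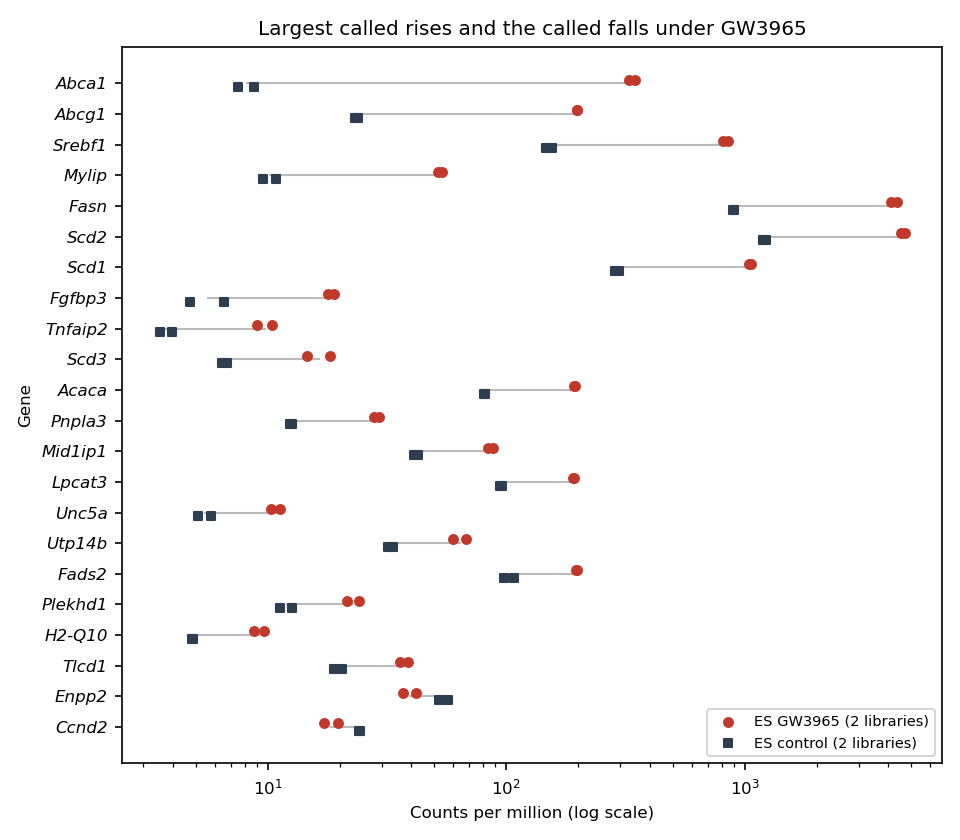
CPM in each library (horizontal axis, log scale) of the 20 largest called rises at a mean of 5 CPM or more and the 2 called falls, with GW3965 libraries as red circles above ES control libraries as dark squares; grey lines join the group means. In each gene the circles and squares do not overlap, with Abca1 at 344.9 and 327.3 CPM under GW3965 and 8.79 and 7.51 CPM in control.

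Mylip was the called gene among those that control lipoprotein uptake. It encodes a ubiquitin ligase, also called IDOL, that sends lipoprotein receptors to degradation, and it had 51.5 and 53.5 CPM with GW3965 against 10.9 and 9.56 CPM in control. The rise was 5.14-fold (log2 2.36 ± 0.11, adjusted p = 1.48e-11), the 1 call among 12 tested genes (median log2 0.07). Vldlr and Lrp8, the genes of receptors that MYLIP is known to target, had log2 differences of 0.05 ± 0.08 and 0.10 ± 0.07 (adjusted p = 1.0 for each).

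Fatty acid synthesis was the list with the most calls. Of 19 tested genes 11 rose and 0 fell, against 0.309% and 0.0117% of all tested genes. In 16 of the 19 both GW3965 libraries lay above both controls, against 20% of all tested genes. The median log2 fold change was 0.53. The 19 genes summed to 12390 and 11910 CPM under GW3965 and 4088 and 4040 CPM in control, a ratio of 2.99. Most of that sum came from Fasn, Scd2 and Scd1, whose levels are given below. Called genes stood at several steps from citrate export towards storage, but not at all of them. Slc25a1, the carrier that brings citrate out of mitochondria, had 185.1 and 182.9 CPM with GW3965 against 137 and 139.5 CPM in control (log2 0.41 ± 0.07). Acly, which cleaves citrate to acetyl-CoA, had 1110 and 1104 CPM against 886.2 and 891.1 CPM in control (log2 0.32 ± 0.07, adjusted p = 0.0343). Acss2, which makes acetyl-CoA from acetate, had 53.8 and 51.2 CPM against 32.1 and 33.2 CPM in control (log2 0.69 ± 0.09). In each of the 3 genes both GW3965 libraries were above both controls.

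Acaca, the acetyl-CoA carboxylase that commits carbon to fatty acids, had 194.4 and 192.6 CPM with GW3965 and 80.4 and 81.1 CPM in control, a 2.40-fold rise (log2 1.26 ± 0.06, adjusted p = 2.28e-11). Of its 50-base stretches 30.4% also occur in another annotated gene, so its counts are uncertain to that extent. Fasn, the fatty acid synthase, had 4360 and 4113 CPM against 888.4 and 903.2 CPM in control and rose 4.73-fold (log2 2.24 ± 0.08, adjusted p = 6.14e-14). Mid1ip1, whose product helps acetyl-CoA carboxylase to polymerise, had 87.6 and 84.2 CPM against 40.9 and 42.8 CPM in control (log2 1.04 ± 0.12, adjusted p = 2.52e-05) and shares 20.9% of its 50-base stretches with a gene on the opposite strand, while its relative Thrsp was at 0.83 and 1.33 CPM against 0.97 and 0.40 CPM in control, with overlapping groups. Towards storage, Pnpla3, a lipid droplet acyl hydrolase, stood at 29.1 and 27.9 CPM with GW3965 and 12.4 and 12.6 CPM in control (log2 1.19 ± 0.12), and Lpin1, a phosphatidate phosphatase, at 126.1 and 131 CPM against 76.1 and 78 CPM in control (log2 0.74 ± 0.07). Gpam, Agpat2 and Dgat2, which encode acyltransferases of glycerolipid synthesis, did not pass (log2 0.04 ± 0.09, 0.09 ± 0.11 and 0.17 ± 0.16, adjusted p = 1.0 for each). The smaller calls depended on single libraries: without GW3965 replicate 1, GW3965 replicate 2, control replicate 1 and control replicate 2 in turn, the adjusted p of Acly was 0.404, 0.227, 0.416 and 0.261. Under the same omissions that of Slc25a1 was 0.0992, 0.0382, 0.107 and 0.0684, and that of Aacs, which activates ketone bodies for lipid synthesis, was 0.132, 0.0139, 0.0344 and 0.108.

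Genes of desaturation and elongation also rose, with 7 of 13 tested genes higher and 0 lower (median log2 0.47). Over all tested genes 0.309% were higher and 0.0117% lower. Scd1 and Scd2 stand on the list for fatty acid synthesis too. Scd2, which encodes a stearoyl-CoA desaturase of brain and other tissues, had 4686 and 4509 CPM with GW3965 against 1226 and 1187 CPM in control (log2 1.93 ± 0.06, adjusted p = 6.04e-15). Scd1 had 1064 and 1040 CPM against 297.3 and 286.2 CPM in control (log2 1.85 ± 0.11, adjusted p = 7.16e-10). Scd3 and Scd4, further desaturase genes, had low CPM, at 18.2 and 14.7 against 6.73 and 6.44 in control, and at 2.82 and 2.05 against 0.40 and 0.47 in control, with log2 fold changes of 1.33 ± 0.21 and 2.49 ± 0.48. The 4 genes lie in a cluster on chromosome 19 (Scd3 at chr19:44203269-44244016 and Scd1 at chr19:44394455-44407879, GRCm38), and each gene has between 3.97 and 6.57% of its 50-base stretches in common with other genes, so reads could pass between them. Without GW3965 replicate 1, control replicate 1 and control replicate 2 in turn, the adjusted p was 0.132, 0.0584 and 0.0873 for Scd3 and 0.455, 0.378 and 0.226 for Scd4.

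Genes of polyunsaturated fatty acid synthesis were among the calls. Fads2, the delta-6 desaturase, had 198.5 and 196.7 CPM under GW3965 and 107.6 and 97.4 CPM in control (log2 0.95 ± 0.07, adjusted p = 3.48e-08). Fads1, the delta-5 desaturase, had 207 and 192.3 CPM against 144.3 and 144.7 CPM in control (log2 0.47 ± 0.06, adjusted p = 0.000493). Elovl5, which elongates polyunsaturated chains, had 264.2 and 263.4 CPM against 168.7 and 168 CPM in control (log2 0.65 ± 0.06, adjusted p = 4.85e-07). Elovl6, which elongates palmitate, had 266.9 and 250.7 CPM against 219 and 198.8 CPM in control and missed the threshold (log2 0.31 ± 0.08, adjusted p = 0.129) but passed in the fit of the 4 libraries (adjusted p = 1.47e-05). Elovl1 and Elovl2 had log2 differences of 0.04 ± 0.08 and 0.03 ± 0.12.

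Of 17 genes for phospholipid remodelling and acyl-CoA synthesis 3 rose and 0 fell (median log2 0.09). Lpcat3, which places polyunsaturated chains into phosphatidylcholine and is an LXR target in liver and gut, had 190.1 and 193.2 CPM with GW3965 and 94 and 96.1 CPM in control (log2 1.01 ± 0.05, adjusted p = 1.87e-10). Lpcat3 shares 8.39% of its 50-base stretches with Emg1 on the opposite strand. Acsl3, an acyl-CoA synthetase of lipid droplets, had 483.2 and 477.4 CPM against 255.2 and 267 CPM in control (log2 0.88 ± 0.08, adjusted p = 6.38e-07), and Utp14b, whose exons overlap those of Acsl3 on the same strand, had 59.8 and 67.6 CPM against 33.5 and 31.9 CPM in control (log2 0.96 ± 0.10). How reads of the shared exons were assigned is not given in the sources used here, so the levels of these 2 genes may not be independent. Pltp, the phospholipid transfer protein, had 138.3 and 127 CPM against 92.7 and 96.1 CPM in control (log2 0.49 ± 0.09, adjusted p = 0.00765), and without GW3965 replicate 1, control replicate 1 and control replicate 2 its adjusted p was 0.334, 0.209 and 0.1. Lpcat1 and Acsl6 had log2 differences of -0.01 ± 0.08 and 0.02 ± 0.10 (adjusted p = 1.0 for each).

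Few genes of cholesterol synthesis passed the test. In the mevalonate arm 1 of 9 tested genes rose and 0 fell (median log2 0.05), and between squalene and cholesterol 0 of 11 passed the edgeR test (median log2 -0.03). Summed levels were 1772 and 1771 CPM under GW3965 against 1822 and 1785 CPM in control for the first arm, and 1372 and 1339 CPM against 1333 and 1332 CPM in control for the second. Members lay on both sides of control: Hmgcs1, which makes HMG-CoA, had 670.4 and 673.6 CPM against 772.6 and 769.3 CPM in control (log2 -0.20 ± 0.09), and Idi1, the isopentenyl diphosphate isomerase, had 108.4 and 103.6 CPM against 132.3 and 132.9 CPM in control (log2 -0.32 ± 0.07, adjusted p = 0.0841). Lss, the lanosterol synthase, had 187.5 and 186 CPM against 143.1 and 145.3 CPM in control (log2 0.37 ± 0.10, adjusted p = 0.17). The fit of the 4 libraries called 2 higher and 2 lower in the mevalonate arm and 3 higher and 1 lower between squalene and cholesterol, with Hmgcs1 and Idi1 among the lower and Lss among the higher (adjusted p = 0.000338, 1.31e-05 and 2.31e-07). Pmvk, the phosphomevalonate kinase, was the called gene, at 100.8 and 101.4 CPM against 71.5 and 74.3 CPM in control (log2 0.47 ± 0.08, adjusted p = 0.0028), and its adjusted p was 0.0613 without GW3965 replicate 1 and 0.107 without control replicate 1.

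**Figure D3:**
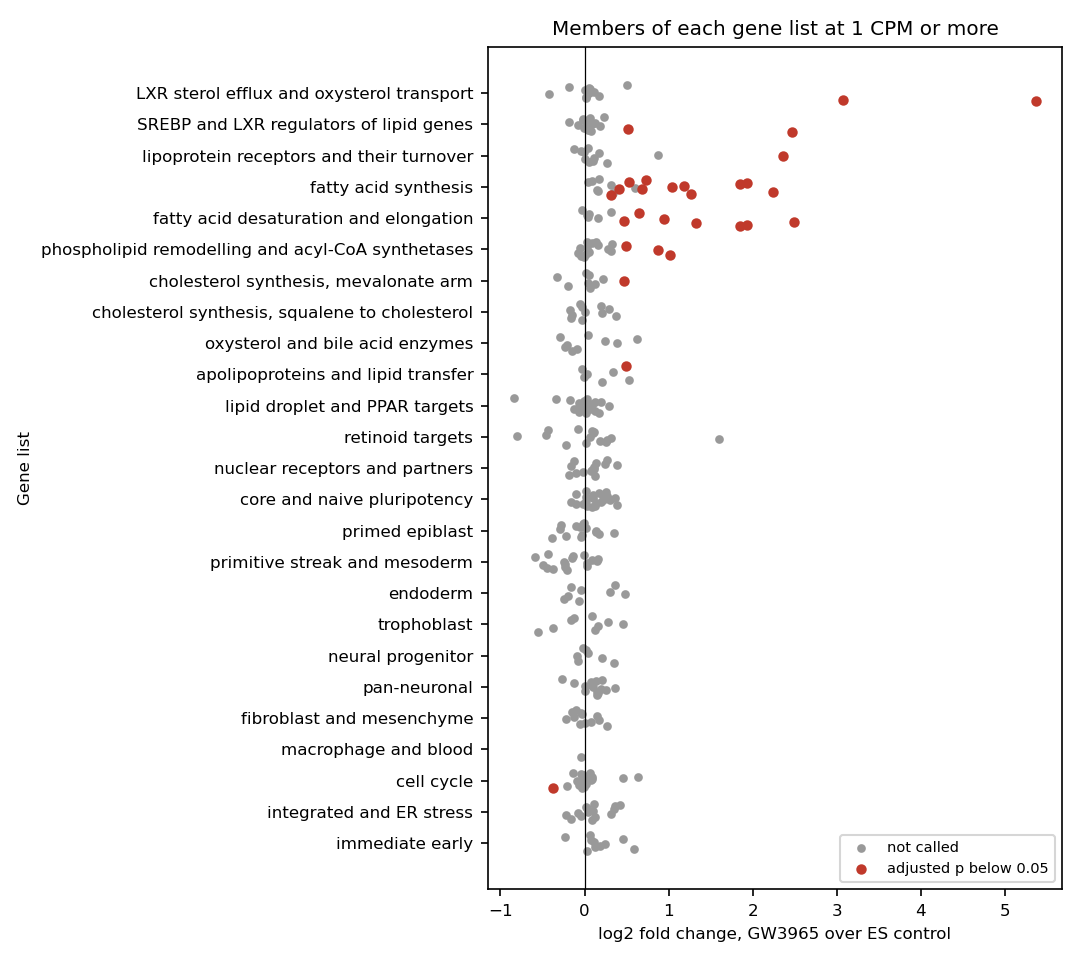
The log2 fold change of GW3965 over ES control (horizontal axis) for members of each gene list (rows) with a mean of 1 CPM or more in either group; each point is 1 gene, red at an adjusted p below 0.05. Red points stand mainly in the rows of fatty acid synthesis (11 of 19) and of desaturation and elongation (7 of 13), while the rows of cholesterol synthesis hold 1, Pmvk.

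Other lipid lists held few calls. Of 11 apolipoprotein and lipid transfer genes Pltp alone passed, and Apoe, an LXR target in macrophages, had 416.9 and 423.4 CPM with GW3965 against 339.9 and 385.9 CPM in control (log2 0.21 ± 0.12, adjusted p = 0.964; 0.00374 in the fit of the 4 libraries). Of 10 oxysterol and bile acid enzymes, 24 lipid droplet and PPAR targets and 23 retinoid targets 0 passed in the fit of 18 libraries. Soat1, which esterifies cholesterol, had 258.7 and 238.2 CPM against 214.6 and 206.7 CPM in control (log2 0.24 ± 0.06, adjusted p = 0.205). Angptl4 and Pdk4, which respond to PPAR ligands, had log2 differences of -0.06 ± 0.18 and 0.08 ± 0.15, and the retinoid target Cyp26a1 had one of -0.22 ± 0.19.

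Of the 53 rises 28 stood on none of the lists. Fgfbp3, which encodes a secreted carrier of fibroblast growth factors, had 17.9 and 18.9 CPM under GW3965 and 4.70 and 6.52 CPM in control (log2 1.70 ± 0.17, adjusted p = 3.14e-06). Tnfaip2, a gene known as a target of TNF, had 8.98 and 10.4 CPM against 3.52 and 3.95 CPM in control (log2 1.36 ± 0.19, adjusted p = 0.00048). Tlcd1, which encodes a membrane protein that affects phospholipid composition, had 35.9 and 38.6 CPM against 18.9 and 20.5 CPM in control (log2 0.91 ± 0.10, adjusted p = 2.38e-05). The groups did not overlap in any of these 3 genes. Plekhd1 rose by a log2 of 0.93 ± 0.13, and Unc5a, a netrin receptor gene, by 1.00 ± 0.17 with an adjusted p of 0.2, 0.062 and 0.195 without GW3965 replicate 1, control replicate 1 and control replicate 2. H2-Q10, a class I histocompatibility gene, rose by 0.93 ± 0.20 (adjusted p = 0.045), but shares 19.1% of its 50-base stretches with relatives and was called in none of the 4 fits that left out a library (adjusted p between 0.153 and 0.589).

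Outside the naming rule, 3 further genes were picked after their values were seen. Rnf145, which encodes a ubiquitin ligase of the endoplasmic reticulum, had 382.8 and 372.2 CPM with GW3965 and 223.4 and 223.8 CPM in control (log2 0.76 ± 0.06, adjusted p = 3.5e-08). H2-K1, the class I gene that shares sequence with H2-Q10, had 320.2 and 313 CPM against 183.2 and 178.5 CPM in control (log2 0.81 ± 0.10, adjusted p = 7.44e-05). Bcl2, which encodes an inhibitor of apoptosis, had 10.5 and 11 CPM against 6.37 and 5.41 CPM in control (log2 0.86 ± 0.14, adjusted p = 0.00249), and its adjusted p was 0.134 without control replicate 2.

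The 2 falls were small. Enpp2, which encodes autotaxin, the secreted enzyme that makes lysophosphatidic acid, had 37 and 41.8 CPM under GW3965 against 52.3 and 57.1 CPM in control (log2 -0.48 ± 0.09, adjusted p = 0.0155). Ccnd2, a D-type cyclin gene, had 19.6 and 17.2 CPM against 24.1 and 24.3 CPM in control (log2 -0.38 ± 0.07, adjusted p = 0.0199). Neither group overlapped the other in these genes. Without GW3965 replicate 1, GW3965 replicate 2, control replicate 1 and control replicate 2 the adjusted p was 0.573, 0.0287, 0.0584 and 0.312 for Enpp2 and 0.0297, 0.325, 0.202 and 0.226 for Ccnd2. An exon of each overlaps a gene on the opposite strand.

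Genes of cell identity did not pass the test in the fit of 18 libraries. Of 24 pluripotency genes 0 were called (median log2 0.13), although 16 had both GW3965 libraries above both controls, against 20% of all genes. Pou5f1 had 748.4 and 741.1 CPM under GW3965 and 687.7 and 708.6 CPM in control (log2 0.09 ± 0.13), and Nanog had 364.9 and 367.1 CPM against 352.5 and 363.9 CPM in control (log2 0.03 ± 0.11). The fit of the 4 libraries called 5 of the 24 higher, among them Dppa5a at 588.4 and 605.2 CPM against 480.8 and 449.6 CPM in control (log2 0.36 ± 0.10 and adjusted p = 0.283 in the fit of 18, 1.15e-07 in the fit of the 4). Of Dppa5a, 38.6% of the 50-base stretches occur in other genes. Primitive streak and mesoderm genes had 0 of 17 called, a median log2 of -0.21, 8 with both GW3965 libraries below both controls, against 18.7% of all genes, and 0 with both above. Eomes, a factor of the primitive streak, had 39.4 and 39.2 CPM against 54.4 and 47.3 CPM in control (log2 -0.37 ± 0.12, adjusted p = 0.429; 0.00119 in the fit of the 4 libraries), and the fit of the 4 libraries called 3 of the 17 lower. In the fit of 18 libraries 0 of 15 primed epiblast, 15 endoderm, 15 neural progenitor, 16 stress and 13 immediate early genes passed, and of 24 cell cycle genes Ccnd2 alone did.

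Upstream sequence was read for the genes called higher, because LXR with RXR is known to bind DR4 elements. Of the 53 genes 43 had a promoter in the RefSeq table (GRCm38.p6). The 250 bases before each start were searched on both strands for AGGTCA, any 4 bases and a second AGGTCA, with up to 3 mismatches in the 12 fixed letters. A match was found for 19 of the 43 genes (44.2%), against 2490 of 13278 tested genes with a promoter (18.8%). By promoter these were 20 of 53 (37.7%), against 2673 of 16742 promoters of tested genes (16%) and 18.5% of all promoters in the table. With at most 2 mismatches the shares were 3 of 43 (6.98%) and 308 of 13278 (2.32%). No test was made, and a match is a description of letters, not a bound site. The closest match was that of Tmco4 (AGGTTAttgtAGGTCA, 1 mismatch), followed by Acsl3 (AGGTTActatGGGTCA, 2 mismatches) and Prrg4 (AGGTTAccttCGGTCA, 2 mismatches). Tmco4 lost its call without GW3965 replicate 1 or control replicate 1 (adjusted p = 0.0509 and 0.0591), and Prrg4 without any 1 of the 4 libraries (adjusted p between 0.0705 and 0.573). Abca1 and Fasn held the same letters, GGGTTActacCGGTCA, Srebf1 held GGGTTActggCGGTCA and Rnf145 GGGTTActacAGTTCA, each with 3 mismatches. In these strings capitals mark the fixed positions. Other rises had no match: the closest letters had 6 mismatches for Mylip and 4 each for Acaca and Lpcat3. For Acaca the only start listed lies inside the annotated gene (searched bases chr11:84195188-84195437, gene start 84129672). The bases before the start of that gene were thus not searched.

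The 250 bases upstream of Abca1, Srebf1, Fasn and Rnf145 are shown because their matches resemble each other while their distances from the start differ. For Srebf1 and Rnf145 the start used lies inside the annotated gene. The other listed starts of these genes had no match, with 4 mismatches each. Capitals mark the match, which for Abca1, Srebf1 and Fasn reads as the motif on the strand opposite to the gene. The intervals are chr4:53159896-53160145 for Abca1 (minus strand, match 67 to 52 bases upstream), chr11:60210472-60210721 for Srebf1 (minus strand, 182 to 167), chr11:120824548-120824797 for Fasn (minus strand, 225 to 210) and chr11:44520039-44520288 for Rnf145 (plus strand, 92 to 77).
Abca1: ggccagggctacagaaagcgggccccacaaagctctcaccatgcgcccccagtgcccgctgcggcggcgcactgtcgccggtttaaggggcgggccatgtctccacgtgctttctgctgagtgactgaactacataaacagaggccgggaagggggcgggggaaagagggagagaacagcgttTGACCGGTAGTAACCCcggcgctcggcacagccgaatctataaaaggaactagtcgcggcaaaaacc
Srebf1: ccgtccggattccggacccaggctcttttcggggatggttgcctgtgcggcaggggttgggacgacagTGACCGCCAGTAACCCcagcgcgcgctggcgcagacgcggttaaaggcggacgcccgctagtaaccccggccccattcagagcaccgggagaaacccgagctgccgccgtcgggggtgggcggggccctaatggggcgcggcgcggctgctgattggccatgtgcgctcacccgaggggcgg
Fasn: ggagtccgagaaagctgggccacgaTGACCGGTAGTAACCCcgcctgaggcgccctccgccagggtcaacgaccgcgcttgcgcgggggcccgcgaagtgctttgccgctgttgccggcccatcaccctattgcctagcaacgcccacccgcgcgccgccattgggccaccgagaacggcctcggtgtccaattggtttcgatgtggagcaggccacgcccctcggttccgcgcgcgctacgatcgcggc
Rnf145: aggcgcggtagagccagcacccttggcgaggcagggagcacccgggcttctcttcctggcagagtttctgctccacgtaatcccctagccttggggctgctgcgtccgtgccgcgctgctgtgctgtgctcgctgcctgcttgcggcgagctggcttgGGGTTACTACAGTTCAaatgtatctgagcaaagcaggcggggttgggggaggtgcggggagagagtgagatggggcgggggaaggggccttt

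The RXR agonist LG268 can act on the same heterodimers from the other partner, and cells given GW3965 were compared directly with cells given LG268, at the same concentration and time. The test called 103 genes (0.6%), 54 higher in GW3965 cells (0.315%) and 49 lower (0.285%). It uses the same GW3965 libraries as the comparison with control, so no overlap of their calls is read. Abca1 had 344.9 and 327.3 CPM with GW3965 and 39.9 and 38.1 CPM with LG268 (log2 3.11, adjusted p = 3.47e-15), and Mylip had 51.5 and 53.5 CPM against 9.73 and 11.2 CPM with LG268 (log2 2.33, adjusted p = 3.02e-11). Abcg1 was higher by a log2 of 1.83, Srebf1 by 1.70 and Fasn by 1.67, and Scd2 by 0.56, with 4686 and 4509 CPM against 3100 and 3123 CPM with LG268. By list, 8 of 19 fatty acid synthesis genes and 4 of 13 desaturation and elongation genes were higher with GW3965 and 0 lower.

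Other genes raised by GW3965 did not pass this test, which does not show that the ligands act alike on them. Acsl3 had 483.2 and 477.4 CPM with GW3965 and 421.1 and 420.1 CPM with LG268 (log2 0.19 ± 0.08, adjusted p = 0.437), and Fgfbp3 had 17.9 and 18.9 CPM against 15.5 and 18.7 CPM with LG268 (log2 0.11 ± 0.15, adjusted p = 0.938). Retinoid targets were on the lower side, with a median log2 of -0.52, 4 of 23 lower with GW3965 and 0 higher. Of 24 lipid droplet and PPAR targets 2 were lower and 0 higher, with a median log2 of -0.04. Over all tested genes 0.285% were lower. Meis2, a homeobox gene, had 1.66 and 1.38 CPM against 6.50 and 6.25 CPM with LG268 (log2 -2.02 ± 0.17, adjusted p = 5.43e-07). Ntrk2, a neurotrophin receptor gene, had 1.96 and 1.49 CPM against 4.48 and 5.92 CPM with LG268 (log2 -1.51 ± 0.24, adjusted p = 0.00263), and its adjusted p was 0.0525 without GW3965 replicate 1, 0.0751 without LG268 replicate 2 and 0.113 by limma-voom. Plin2, whose product coats lipid droplets, had 88 and 86.5 CPM with GW3965 against 141 and 142.5 CPM with LG268 (log2 -0.70 ± 0.08, adjusted p = 0.000104). Enpp2, lower than control with GW3965, stood at 37 and 41.8 CPM against 21.5 and 21.6 CPM with LG268 (log2 0.86, adjusted p = 4e-05). The comparison called 892 genes when fitted on its 4 libraries alone, and 32 without GW3965 replicate 1, 32 without GW3965 replicate 2, 29 without LG268 replicate 1 and 35 without LG268 replicate 2. Abca1, Mylip, Abcg1, Srebf1, Fasn, Scd2, Meis2, Plin2 and Enpp2 were called in each of these fits.

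With both ligands together, Abca1 reached 576.4 and 531.1 CPM, Scd2 6444 and 6739 CPM, Acsl3 998.1 and 831.4 CPM and Bcl2 31.9 and 28.1 CPM, each above the GW3965 libraries, while Mylip was at 34.5 and 36.7 CPM, below them. These values are given without a test, and the 2 libraries of that group stood farther apart than other ES replicates, with a mean chi-square per gene of 10.2 between them, against 2.80 between the GW3965 libraries and 3.32 between the controls.

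**Figure D4:**
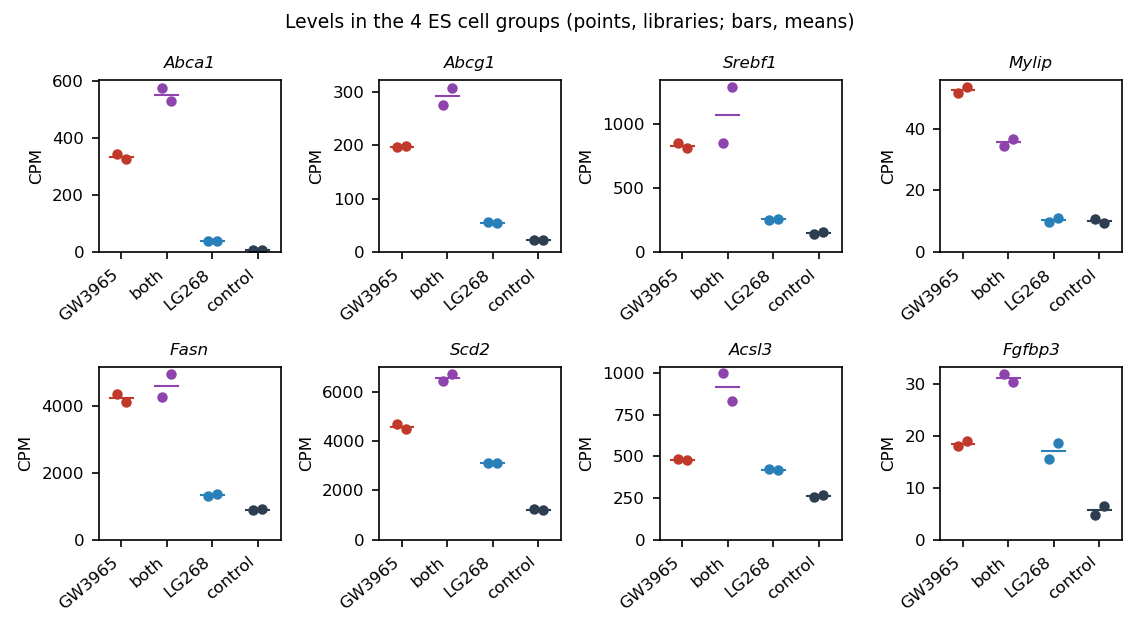
CPM (vertical axes, each starting at 0) of 8 genes in the 4 ES cell groups, from left to right GW3965, both ligands, LG268 and control; points are libraries and bars group means. Mylip is at 51.5 and 53.5 CPM with GW3965, 9.73 and 11.2 CPM with LG268 and 10.9 and 9.56 CPM in control, whereas Acsl3 and Fgfbp3 did not pass the test between GW3965 and LG268.

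The GW3965 response of ES cells was set against that of day 17 cultures, which shares no library with it. At day 17 far more genes were called, 6044 (35.2%), 2961 higher (17.2%) and 3083 lower (18%). Of the 53 genes raised in ES cells, 35 were higher at day 17 too, 5 were lower and 13 were not called, so the shared rises were 66% of the ES list and 1.18% of the day 17 list. The difference of the responses was called for 3131 genes (18.2%), 1656 with the ES response above that at day 17 (9.65%) and 1475 below (8.59%). Among the 53 it was above in 24, below in 5 and not called in 24, a description only, since the ES response that chose these genes is part of the difference. The day 17 files list 23.18 to 29.52 M reads with several alignments and the ES files list 0, and the part of this in the difference was not tested.

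Among the 55 genes called in ES cells Abca1 differed most, with a log2 response of 5.37 ± 0.10 in ES cells and 1.14 ± 0.08 at day 17 (difference 4.24, adjusted p = 2.02e-14). For Fasn the responses were 2.24 ± 0.08 in ES cells and 1.33 ± 0.08 at day 17 (difference 0.91), and for Mylip 2.36 ± 0.11 and 1.48 ± 0.11 (difference 0.88). Scd1 ran the other way, with 1.85 ± 0.11 in ES cells and 2.92 ± 0.12 at day 17 (difference -1.07, adjusted p = 7.66e-05). For Srebf1 and Scd2 the difference did not pass, at 2.46 ± 0.12 in ES cells and 2.03 ± 0.12 at day 17 (difference 0.43 ± 0.16, adjusted p = 0.0755) and at 1.93 ± 0.06 and 1.85 ± 0.06 (difference 0.08 ± 0.08, adjusted p = 0.516). Mid1ip1, Tnfaip2 and Unc5a rose in ES cells and had day 17 responses of -0.02 ± 0.12, 0.09 ± 0.17 and -0.21 ± 0.22, with differences of 1.06, 1.27 and 1.21 that were called. Pltp rose in ES cells by 0.49 ± 0.09 and fell at day 17 by 0.33 on the log2 scale (adjusted p = 0.00909, and 0.142 without day 17 GW3965 replicate 2), and the difference of 0.82 was called without any 1 of the 8 libraries.

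Most genes of cholesterol synthesis responded differently in ES cells and at day 17. In the mevalonate arm 8 of 9 genes were higher with GW3965 at day 17 and 1 lower, against 1 higher and 0 lower in ES cells, and the ES response was below that at day 17 in 7 of the 9 and above it in 0. Between squalene and cholesterol all 11 genes were higher at day 17, against 0 called in ES cells, and all 11 differences were called. Over all tested genes 17.2% were higher at day 17, and the ES response was below that at day 17 in 8.59%. Hmgcs1 responded by -0.20 ± 0.09 in ES cells and 1.10 ± 0.09 at day 17 (difference -1.30, adjusted p = 6.81e-07). Sqle, the squalene epoxidase, responded by -0.17 ± 0.05 in ES cells and 0.78 ± 0.05 at day 17. Insig1, which shares sterol control with these genes, had a difference of -1.07. Immediate early and stress genes differed as well. At day 17, 11 of 13 immediate early and 11 of 16 stress genes were lower, against 18% of all tested genes. In ES cells 0 of either list passed the edgeR test in the fit of 18 libraries. The fit of the 4 libraries called 2 of each list higher. The difference was called with ES cells above in 9 of 13 and 11 of 16, against 9.65% of all tested genes.

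**Figure D5:**
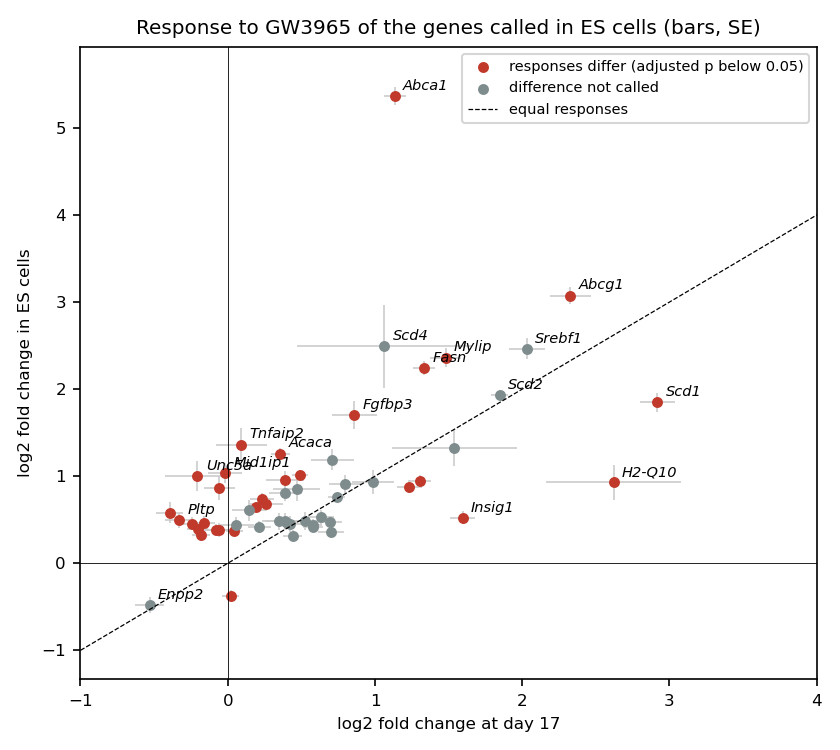
The log2 fold change with GW3965 in ES cells (vertical axis) against that at day 17 (horizontal axis) for the 55 genes called in ES cells, with bars of 1 SE; red points mark genes whose responses differ at an adjusted p below 0.05, and the dashed line marks equal responses. Abca1 lies farthest above the line and Scd1, Insig1 and H2-Q10 lie below it.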

How the data were processed

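RNA was sequenced from 18 libraries in 9 groups of 2. The authors deposited whole-number counts of reads per gene symbol, 1 file per library, each ending in 5 summary lines that were kept out of gene totals and tests. Per the submitters' processing notes TopHat2 2.0.7, Cufflinks 2.0.2, HTSeq 0.6.0, Cuffdiff 2.0.2 and mm10 were used; their order, the annotation and the strand setting are not given in the sources used here.

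Versions were 4.0.16 of edgeR, 1.42.0 of DESeq2 and 3.58.1 of limma, in R 4.3.3. After filterByExpr, which left 17166 genes, libraries were scaled by TMM (factors 0.9124 to 0.9342 in the 4 libraries), and 1 quasi-likelihood fit with a mean per group (residual degrees of freedom 9, prior 10.41; coefficient of biological variation 6.471%) gave every comparison. Tests were two-sided, with Benjamini-Hochberg adjustment over all genes tested and no minimum fold. CPM are counts per 1000000 of the TMM-scaled library, and an SE is the log2 fold change divided by the root of its F statistic. A fit of all groups was used because 4 libraries leave few degrees of freedom. Total gene counts over the series ran from 16.75 to 44.79 M. SEs cover counting and the fitted spread. Replicates of a group differed by more than sampling noise.

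The comparison, the gene lists and the naming rule were chosen with earlier results of these data known. The rule named the 20 largest called rises and all called falls at 5 CPM or more with no overlap, up to 6 members of each list with called ones first, the 3 largest called differences in each direction in the other comparisons, and a short set always given. Of these genes, Asic4, C1qtnf3, Cdh26 and Mixl1 were near 0 in a group and are not described. A few genes of the rule are not reported here. Tested symbols were matched to GENCODE M21 (GRCm38, 99.09%) for positions and for 50-base stretches found in another gene; 26 of the 55 called genes shared 1% or more and 20 overlapped an exon of another gene. Same-numbered replicates did not deviate together (correlations of -0.096 to 0.0691 over 36 pairs) and were treated as unpaired. Alternatives were limma-voom, the Wald test and the size factors of DESeq2, no filter or one of 1 CPM in 4 libraries, a replicate block, fits of 4 or 8 libraries, fits without the libraries with both ligands or without those of day 17, and leaving out 1 library. The code was tested on simulated data.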

Additional observations from a re-analysis of the deposited data

Results flagged for a closer look

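The response to GW3965 differed between ES cells and day 17 cultures for 30 of the 55 genes called in ES cells. The test was the interaction term of the edgeR fit, which called 18.2% of all tested genes. Values that follow are the log2 response in ES cells minus that at day 17. They were above 0 for 24 of the 30 and below 0 for 6. That is a description only, since the ES response that chose the 55 genes is part of the difference. Those above 0 that the naming rule covers were Abca1 (4.24), Tnfaip2 (1.27), Unc5a (1.21), Mid1ip1 (1.06), Fasn (0.91), Acaca (0.90), Mylip (0.88), Fgfbp3 (0.84), Pltp (0.82), Abcg1 (0.75), Utp14b (0.57), Lpcat3 (0.52), Lpin1 (0.50) and Elovl5 (0.45). Those below 0 were H2-Q10 (-1.69), Scd1 (-1.07), Insig1 (-1.07), Ccnd2 (-0.40), Fads2 (-0.36) and Acsl3 (-0.36).

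Between squalene and cholesterol 11 of 11 genes differed, all below 0, among them Sqle (-0.95), and in the mevalonate arm 7 of 9 did, among them Hmgcs1 (-1.30). Srebf2 (-0.42) also lay below 0. Above 0 were 9 of 13 immediate early genes and 11 of 16 stress genes. Among genes that the naming rule took for their day 17 response, Fosb (6.04), Trim66 (4.75) and Trib3 (3.74) lay above 0. Ankrd37 (-2.31) and Ndufa4l2 (-2.57), taken in the same way, lay below 0. The rule picked these 5 from the largest called day 17 changes, and Fosb and Trim66 also from the largest called differences. The size of their differences was thus in part fixed by that choice. Their ES responses lay between 0.12 and 0.69 and were not called. Some of these differences lost their call when 1 of the 8 libraries was left out. That of Abcg1 ended without day 17 control replicate 2 (adjusted p = 0.0697), and that of Fgfbp3 without ES control replicate 1, day 17 control replicate 1 or day 17 GW3965 replicate 1 (adjusted p = 0.0952, 0.0998 and 0.0528). The calls of Acsl3, Fads2, H2-Q10, Srebf2 and Utp14b each ended in 4 or more of the 8 fits that left out a library, with highest adjusted p of 0.232, 0.116, 0.19, 0.151 and 0.104.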

How the results depend on the processing

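None of the 55 genes called in ES cells changed direction against control in the settings run. The named genes followed in the other comparisons kept their direction too. Named genes that were not called in ES cells were not followed against control. Without a filter 164 genes were called in ES cells (147 higher, 17 lower), and in the fit of the 4 libraries 369 (307 and 62). Lower calls numbered 9 by the DESeq2 Wald test, 4 without the libraries with both ligands and 4 without those of day 17. Without 1 library the count ran from 28 to 44, with 28 to 41 higher and 0 to 3 lower. Of the 55 genes 26 were called in all 14 settings, and the other 29 each lost the call when some library was left out. GW3965 against LG268 had 266 calls without a filter (138 higher, 128 lower), 180 by the Wald test (82 and 98, with lower calls the more numerous, as with DESeq2 size factors at 44 and 51), 892 in the fit of its 4 libraries (482 and 410), and 29 to 35 without 1 library (17 to 20 and 10 to 17). The difference from day 17 had 2224 to 2490 calls without 1 library, 1034 to 1356 of them above 0 and 984 to 1190 below. Calls below 0 outnumbered those above, 1190 to 1034, without ES GW3965 replicate 1. With at most 2 mismatches 3 genes called higher held a DR4. With the replicate block 51 genes were called in ES cells, 50 of them among the 55, and 90, 5914 and 2978 in the comparison with LG268, at day 17 and in the difference. With 2 libraries a group, small changes are near the limit of detection.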
